A study of Macaca mulatta with 449 samples.

Results

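Single-exon transcripts made up 14.7% of the merged brain transcript assembly of the rhesus macaque, 7864 of 53661 assembled transcripts. A transcript was counted here when exactly 1 exon line of the deposited assembly carried its identifier, so the number of exons chose the members and is not itself a finding. RNA-seq had been done on 416 samples, 1 from each of 52 brain sub-regions in each of 8 male and female animals aged 3.2 to 10 years. Transcripts were assembled in each sample and then merged into this 1 assembly. The midbrain samples were used for the assembly and are not in the gene count table, which holds 408 samples of 51 sub-regions with 7784678 to 31083490 counts each. Since the assembly holds 1 value per transcript for all samples together, it has no replicates, and the shares and medians given here describe this assembly without a test.

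Most mammalian genes are split into exons, and an unspliced RNA can have several origins. Intronless genes such as JUN family members and many G protein-coupled receptors, copies of spliced genes pasted back into the genome from their messenger RNA, mitochondrial genes and small structural RNAs are read from a single exon. Some enhancer and antisense RNAs are as well, while others are spliced. RNA from which ribosomal RNA was depleted, as in these samples, also keeps unspliced precursor RNA, in which intron sequence lies next to exons, and transcripts without a poly(A) tail.

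The single-exon transcripts were shorter than the spliced ones. Their median length was 2029 bases, with quartiles at 850 and 4166 bases and a range from 112 to 25876 bases. Transcripts with 2 or more exons had a median of 3920 exon bases. Of the single-exon transcripts, 1136 (14.4%) were below 500 bases, against 4.51% of the multi-exon transcripts, and 1479 (18.8%) were above 5000 bases, against 37.3%. Only 4 members were shorter than 200 bases, the length from which long non-coding RNAs are usually counted. Of the multi-exon transcripts 4 were shorter as well. For its own long non-coding RNAs the paper excluded transcripts by a length below 200 bases and by having a single exon. The transcripts just outside the rule, 8157 with exactly 2 exons, had a median of 1861 exon bases, with quartiles at 689 and 3725 bases, and so lay close to the single-exon transcripts in length. Between the ends of their exons these 2-exon transcripts covered a median of 6415 bases of the genome.

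**Figure D1:**
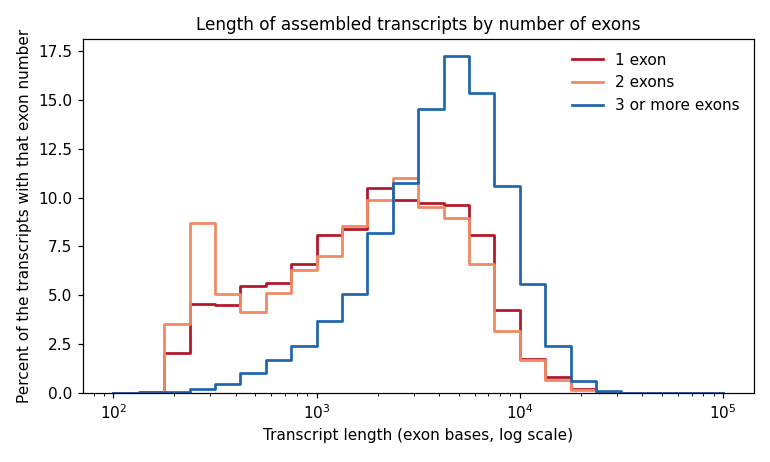
Length of assembled transcripts in exon bases (x axis, log scale) against the percent of the transcripts with that number of exons (y axis), for 1 exon, 2 exons and 3 or more exons. The curves for 1 and 2 exons lie together, with medians of 2029 and 1861 bases, to the left of transcripts with 3 or more exons, whose median was 4354 bases.

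Above 15 kb there were 50 members from 30 loci, 21 of which held 1 each. TU47086, the longest, spanned 25876 bases of the minus strand (chr8:8899113-8924988, assembly Mmul 8.0.1, as are all coordinates here), and TU47078 and TU47083 of the same gene identifier covered 25706 and 23696 bases of the same stretch. Their locus held 10 of the 50 and had 13 single-exon transcripts among 15 transcripts in all. TU42608 on chromosome 6 (24630 bases, chr6:138992216-139016845, plus strand) and TU31209 on chromosome 20 (23177 bases, chr20:26485188-26508364, plus strand) were the other 2 of the 5 longest. All 5 overlapped an exon of a multi-exon transcript on their own strand, and their abundance values ran from 0.031 to 0.207. The shortest members were TU3347 (112 bases, chr1:133231701-133231812, plus strand), TU13610 (159 bases, chr13:72528238-72528396, plus strand) and TU47404 (169 bases, chr8:27625713-27625881, plus strand). Of these, TU3347 and TU13610 had abundance values of 7.14 and 11 and TU47404 had 0.036.

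Every single-exon transcript carried a strand. There were 3899 on the plus strand (49.6%) and 3965 on the minus strand, beside 49.4% on the plus strand among multi-exon transcripts. The libraries were made with a kit that marks the strand, while the alignment was run at the aligner's default settings. How the assembly came to its strand for unspliced reads was not tested, and this bears on every result given by strand. Over the 22 chromosomes with at least 100 transcripts, the plus-strand share of the members ran from 40.4% on chromosome 3 to 55.3% on chromosome 7.

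By the expr attribute, the abundance value that the merging program wrote for each transcript, single-exon transcripts mostly had low values. The scale of this value is not given in the sources used here, so it is used only to compare transcripts of this assembly. The median was 0.136 for single-exon transcripts (quartiles 0.038 and 0.761) and 1.07 for multi-exon transcripts (quartiles 0.127 and 6.92), a ratio of the medians of 0.127. A value of 1 or more was found in 1734 members (22.05%) and in 50.8% of the multi-exon transcripts. A value of 10 or more was found in 518 members (6.59%) and in 20.3% of the multi-exon transcripts.

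Against the transcripts with exactly 2 exons the order was the other way round. Their median was 0.108 (quartiles 0.029 and 0.752), so that the single-exon median was 1.26 times as high. Of the 2-exon transcripts 22.4% reached a value of 1 and 7.20% reached 10, close to the shares among the single-exon transcripts. Transcripts with 3 or more exons had a median of 1.60. The values stopped abruptly at their lower end. A minimum abundance had been set for the merge, at a number above most of these values. How that setting relates to the scale of the expr attribute is not known here. Its part in this lower end was not tested. Of the single-exon transcripts 1093 (13.9%) lay from 0.013 to below 0.02 and 11 lay lower, 1 of them listed at 0. In that narrow band lay 16.7% of the 2-exon and 5.97% of all multi-exon transcripts.

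**Figure D2:**
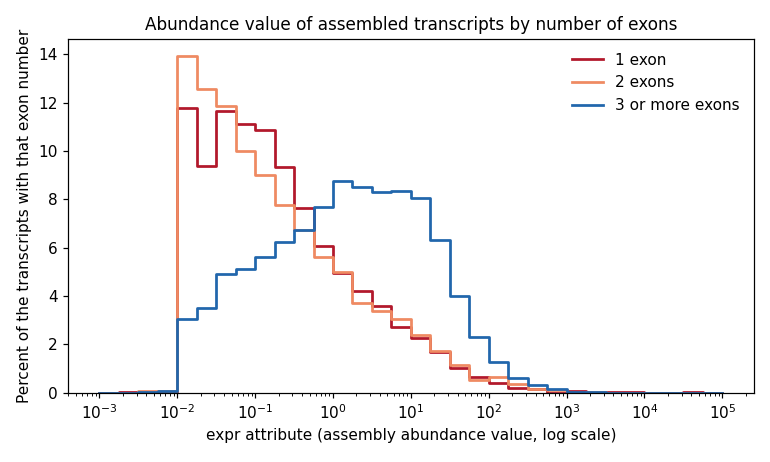
The expr attribute (x axis, log scale, in the assembly's own abundance unit) against the percent of the transcripts with that number of exons (y axis), for 1 exon, 2 exons and 3 or more exons. Transcripts with 1 and 2 exons begin abruptly at the lower end near 0.013 and thin out above 1, while those with 3 or more exons have a median of 1.60.

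A few members held most of the members' summed abundance. Single-exon transcripts carried 21.5% of the expr values summed over the assembly, and the 10 highest members alone carried 16.9%, leaving 4.59% for all the others. Within the single-exon transcripts the 4 highest held 65.0% of the sum and the 10 highest held 78.6%, while the 10 highest multi-exon transcripts held 8.65% of theirs. The mean value of the members was 21.4, above the 13.4 of the multi-exon transcripts, although their median was far lower. Without the 10 highest of each kind the means were 4.58 and 12.3. Values of 1000 or more belonged to 14 single-exon and 35 multi-exon transcripts.

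Of the 10 highest members, 4 lay on the mitochondrial sequence, whose genes have no introns. TU51655 (chrMT:1624-3181, 1558 bases) had a value of 33366, and TU51657 (chrMT:3259-4213, 955 bases), TU51672 (chrMT:7532-8215, 684 bases) and TU51658 (chrMT:5850-7418, 1569 bases) had 5673, 5483 and 5419, all on the plus strand. The mitochondrial sequence held 9 single-exon transcripts among 27 assembled there, 6 on the plus and 3 on the minus strand, from 262 to 1569 bases long. These 9 carried 29.9% of the members' summed value and 74.9% of the summed value of the mitochondrial transcripts. The other 18 mitochondrial transcripts were drawn with 2 or more exons, and the highest of those had a value of 9043. No gene annotation of this assembly was used here, so the mitochondrial members are given by position and not by gene name.

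The remaining 6 of the 10 highest were nuclear and short, from 458 to 864 bases. TU47694 on chromosome 8 was the highest of all (chr8:30617208-30617830, minus strand, 623 bases), with a value of 35931, and it lay within an intron of a multi-exon transcript on the plus strand. TU13762 on chromosome 13 (chr13:85092797-85093411, minus strand, 615 bases) reached 32850 and lay 591537 bases from the nearest multi-exon transcript. Its counterpart TU13761 covered the same 615 bases on the plus strand with a value of 7209. TU29336 on chromosome 2 (chr2:135058411-135059274, plus strand, 864 bases) had a value of 2932 and a distance of 144746 bases to the nearest multi-exon transcript. TU51060 on chromosome 9 (chr9:102918089-102918731, plus strand, 643 bases) had 1857, and TU29676 on chromosome 2 (chr2:130161055-130161512, minus strand, 458 bases) had 1648. The latter was 1 of 42 transcripts of its gene identifier.

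The position of the members against the spliced transcripts was set by the first of 5 classes that applied, with an overlap of at least 1 base. An exon of a multi-exon transcript on the same strand was overlapped by 2537 members (32.3%). Another 782 (9.94%) lay within introns of such transcripts. With no overlap on their own strand, 1673 (21.3%) overlapped an exon on the opposite strand and 587 (7.46%) lay within introns of the opposite strand. The remaining 2285 (29.1%) overlapped no multi-exon transcript on either strand. Summed, 3319 (42.2%) overlapped a multi-exon transcript on the same strand, 2260 (28.7%) on the opposite strand only, and 1789 (22.7%) on both strands.

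Members that overlapped an exon were longer than those in introns, on either strand. The median length was 2842 bases with same-strand exon overlap and 1199 bases within same-strand introns. It was 2505 bases with opposite-strand exon overlap and 977 bases within opposite-strand introns, and 1441 bases without overlap. A longer stretch has more chance of touching an exon, and the part of length in these class shares was not tested. The median expr value was highest with same-strand exon overlap, 0.200 (quartiles 0.064 and 0.896), and lowest within opposite-strand introns, 0.070 (quartiles 0.019 and 0.497). Members without overlap had a median of 0.138 (quartiles 0.034 and 0.981). The quartile ranges of all 5 classes overlapped.

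The class shares moved with abundance. Among the 1104 members with a value below 0.02, 15.4% overlapped a same-strand exon, and this share was 39.8% among the 2669 members from 0.1 to below 1. Among the 518 members at 10 or more it was 26.1%, and the largest class there was that without overlap, 198 members or 38.2%. That class was also the largest below 0.02, with 361 members or 32.7%. Opposite-strand exon overlap was found for 276 members in the lowest band, for 206 (16.9%) in the band from 1 to below 10 and for 106 (20.5%) in the highest. Median length also differed between the bands. It was 1816 bases below 0.02, 2496 bases from 0.02 to below 0.1, and 945 bases at 10 or more, while the multi-exon transcripts at 10 or more had a median of 3747 exon bases.

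**Figure D3:**
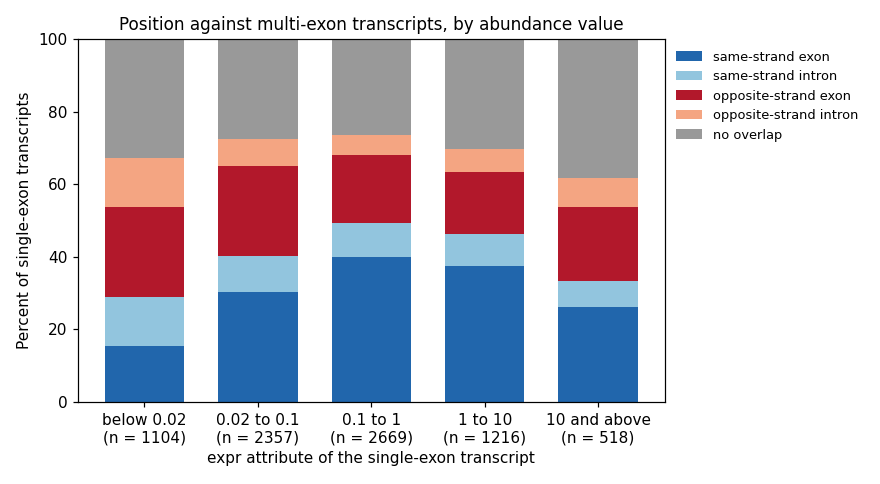
Percent of single-exon transcripts (y axis) in each of 5 positions against multi-exon transcripts, in 5 bands of the expr attribute (x axis, with the number of members in each band). Same-strand exon overlap covers 15.4% of the lowest and 39.8% of the middle band, and the class without overlap is the largest in the lowest band, 32.7%, and in the highest, 38.2%.

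The highest members of each class, beyond those already described, were far apart in level. TU29678 (chr2:130165817-130168080, minus strand, 2264 bases) overlapped a same-strand exon and had a value of 1107, at the locus of TU29676. Within same-strand introns the highest after TU47629, which had 711, were TU18601 (chr15:56477721-56478311, plus strand, 591 bases) with 257 and TU48541 (chr8:110033902-110034124, minus strand, 223 bases) with 96.0. Within opposite-strand introns TU1342 (chr1:34294360-34294572, minus strand, 213 bases) had 331. The 3 highest with opposite-strand exon overlap were the mitochondrial TU51655, TU51657 and TU51658.

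Against the transcripts with 3 or more exons only, the single-exon and the 2-exon transcripts took different positions. Of the single-exon transcripts 14.4% overlapped an exon of such a transcript on the same strand and 47.6% overlapped none on either strand. Of the 2-exon transcripts 29.02% overlapped a same-strand exon and 29.3% overlapped none. The shares within same-strand introns were 8.18% and 8.94%. A 2-exon transcript spans more of the genome, and the part of that span in the difference was not tested.

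Many members that overlapped a spliced exon on their own strand reached from it into an intron. Of the 2537 members with same-strand exon overlap, 336 (13.2%) lay wholly inside 1 exon. Of those, 256 lay inside a last exon and 80 inside a first exon that was not also a last one, and 0 lay inside internal exons only. A further 526 (20.7%) ran across at least 1 whole intron of a spliced transcript, 25 of them counted among the 336 as well, with a median length of 4846 bases. The other 1700 (67.0%) did neither.

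Many of their ends coincided with those of spliced transcripts to the base. How often multi-exon transcripts share end bases with each other was not computed. The 5′ end base was shared with a same-strand multi-exon transcript by 1171 members (46.2%) and the 3′ end base by 1354 (53.4%), while 371 shared both and 383 shared neither. The member began at a shared 5′ end and stopped within an intron in 744 cases (29.3%), with a median value of 0.137. It began within an intron and finished at a shared 3′ end in 837 cases (32.99%), with a median value of 0.219. An end was counted as within an intron when any same-strand spliced transcript had an intron there, even where another had an exon. Only 87 members had a 5′ end, and 159 a 3′ end, outside every same-strand multi-exon transcript. CDK5R2 and ZDBF2, described with the named genes, were members that ran across an intron.

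The identifiers of the assembly came from the same merge as the coordinates, so they are no separate check on this division. A gene identifier was shared with a multi-exon transcript by 2556 members (32.5%), among them all 2537 with same-strand exon overlap and 19 others. A start site identifier was shared by 1171 and a locus by 6472 (82.3%). The other members formed 4449 gene identifiers with single-exon transcripts only, 19.4% of the 22922 in the assembly. In 4191 of these the member was the sole transcript, with a median length of 1509 bases and a median value of 0.073. The remaining 258 gene identifiers held 1117 members, with a median value of 0.291, and the largest held 31. By the fraction attributes, 5387 members (68.5%) were the most abundant transcript of their gene identifier, against 38.3% of the multi-exon transcripts, and sole transcripts are counted among them.

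The members were spread over 3864 of the 11103 loci, and 2397 of these loci held 1 member. At the other end, 77 loci with at least 10 members held 1211. A locus on chromosome 20 (chr20:56203519-56439520) held 77 single-exon transcripts among 151 transcripts, with values up to 0.429. One on chromosome 12 (chr12:64645197-64856248) held 42 of 107, with values up to 0.260. A locus on chromosome 3 (chr3:132007301-132015415) held 31 of 32, and one on the X chromosome (chrX:88617657-88620793) held 23 of 24, with values up to 0.725 and 1.40. Over the assembly, 2195 members (27.9%) overlapped another single-exon transcript on their own strand, and such members are not separate observations.

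The 2285 members without overlap lay near spliced transcripts in many cases. The median distance to the nearest multi-exon transcript on either strand was 6776 bases, with 702 members (30.7%) within 1 kb and 1254 (54.9%) within 10 kb. For 705 (30.9%) the nearest was a same-strand transcript that ended upstream, so that the member lay on its 3′ side, at a median distance of 5561 bases. For 525 (22.98%) the member lay on the 5′ side of a same-strand transcript, at a median of 14540 bases. Neighbours on the opposite strand faced the member 5′ end to 5′ end in 547 cases (23.9%) and 3′ end to 3′ end in 508 (22.2%), at medians of 7588 and 4613 bases. Within 1 kb lay 221 members on the 3′ side and 136 on the 5′ side of a same-strand transcript, 190 in the 5′ to 5′ and 155 in the 3′ to 3′ arrangement. The 4 arrangements had median expr values from 0.128 to 0.147. The 373 members more than 100 kb from any multi-exon transcript had a median value of 0.208 and a median length of 1008 bases.

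Some single-exon transcripts lay opposite each other, and how often multi-exon transcripts do so was not computed. Of the members, 2289 (29.1%) overlapped another single-exon transcript on the opposite strand. A pair was counted as mirrored when each covered at least 90% of the other, which gave 1048 pairs from 1171 members (14.9%), 17 of them identical in both ends. Since overlapping variants each form pairs of their own, the pairs came from only 429 loci. The median value of the members in pairs was 0.226, against 0.126 for the others. Within a pair the higher value was a median of 2.34 times the lower. The ratio was under 2 in 442 pairs and over 10 in 116.

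Of the 10 highest members, 5 were in mirrored pairs. TU47694 faced TU47629 (chr8:30617242-30617830, plus strand), whose value of 711 was 50.5 times lower than 35931. TU13762 and TU13761 had identical ends and differed 4.56-fold. TU51060 faced TU51078 on chromosome 9, with 1857 and 1038, a ratio of 1.79. TU29676 faced TU29362 on chromosome 2, with 1648 and 31.3, a ratio of 52.6.

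Single-exon transcripts were found on every chromosome, with shares of all transcripts from 12.7% on chromosome 16 to 19.9% on chromosome 17 (median 14.2%, SD 2.20 over the 22 chromosomes with at least 100 transcripts). Chromosome 18 had 19.4%, the Y chromosome 18.5% (23 of 124) and the X chromosome 18.2%. Per Mb of sequence up to the last transcript, the members ran from 1.56 on chromosome 5 to 8.80 on chromosome 19, and multi-exon transcripts from 9.37 on chromosome 17 to 53.0 on chromosome 19. Chromosome 17 thus combined the highest single-exon share with the lowest density of multi-exon transcripts, at a member density of 2.33. In each of the 22 chromosomes the median length and the median expr value of the members were below those of the multi-exon transcripts. The members' median value ran from 0.051 on the Y chromosome to 0.236 on the X chromosome. On the X chromosome 39.5% of the members overlapped no multi-exon transcript, the highest share, and on chromosome 20 21.6% did, the lowest.

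**Figure D4:**
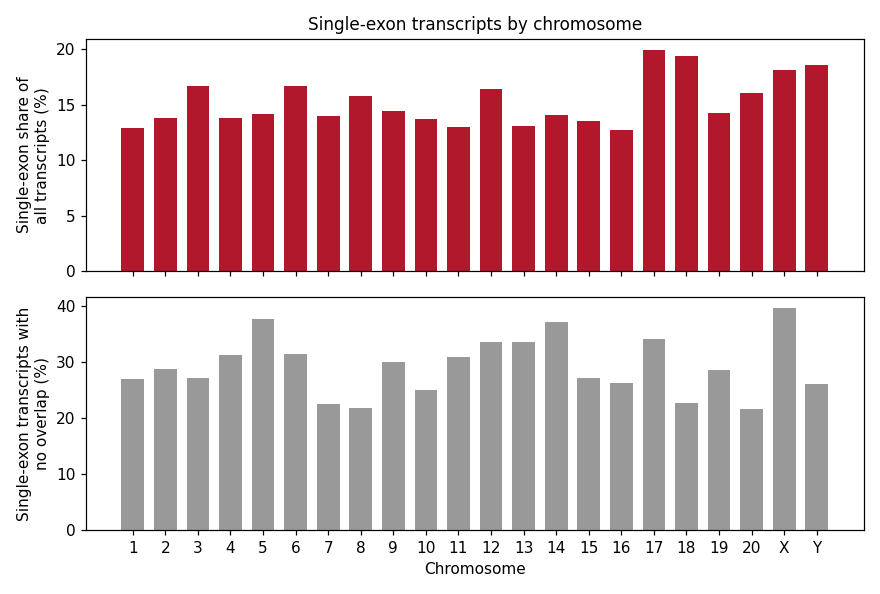
Share of all assembled transcripts with 1 exon (top, percent) and share of those single-exon transcripts that overlap no multi-exon transcript (bottom, percent) on the 22 chromosomes with at least 100 transcripts (x axis). Chromosomes 17, 18, X and Y have the highest single-exon shares, from 18.2% to 19.9%, and the X chromosome has the highest share without overlap, 39.5%.

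Gene names could be given for members on chromosomes 12 and 19 only, from the part of the study's list of coding transcripts read here, which named 13 members. Of the 10 highest of these, 5 overlapped no spliced transcript. JUNB, an immediate early transcription factor, was TU24825 (chr19:12737997-12740026, plus strand, 2030 bases), with a value of 62.9 and no overlap. It lay 2672 bases from its nearest spliced neighbour. JUNB was the 1 gene found of a list of 65 known to have their coding sequence or transcript in 1 exon. Only names on chromosomes 12 and 19 could be searched, so a gene not found may still be in the assembly. EID2, an inhibitor of differentiation, was TU25823 (chr19:35296083-35297522, minus strand, 1440 bases), with 34.4 and a distance of 7945 bases. FZD7, a Wnt receptor of the Frizzled family, was TU11642 (chr12:83591092-83595009, plus strand, 3918 bases), with 8.57 and a distance of 180438 bases. FEM1A, a substrate receptor of a ubiquitin ligase, and TMEM185B, a transmembrane protein, were TU24303 (3825 bases, value 14.2) and TU10737 (1053 bases, value 10.0), also without overlap.

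Other named members lay over or inside spliced transcripts. CDK5R2 encodes p39, an activator of the neuronal kinase CDK5, and was TU11916 (chr12:101084022-101086476, plus strand, 2455 bases), with a value of 91.4. It was 1 of 2 transcripts of its gene identifier, the other being spliced, and was the more abundant of both. ZDBF2, an imprinted zinc finger gene, was TU11735 (chr12:88072644-88083330, plus strand, 10687 bases), with a value of 20.1, 1 of 3 transcripts of its gene identifier and the most abundant of them. TMEM88B was TU25742 (1173 bases, value 7.27), which lay within a same-strand intron.

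A pair of names belonged to genes that are spliced and have many intronless copies in primate genomes. RPL21, a ribosomal protein of the large subunit, was TU24571 on chromosome 19 (chr19:9834512-9834994, minus strand, 483 bases), with a value of 319. GAPDH, the glycolytic enzyme, was TU11203 on chromosome 12 (chr12:45440476-45441754, minus strand, 1279 bases), with 22.5. Both overlapped an exon of a spliced transcript on the opposite strand only. A short read cannot always be placed among near-identical copies, so both the names and the values of these members are uncertain.

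For 5 of the named members the gene count table held a gene of the same symbol, which gave the levels in every sub-region. The link is by symbol and not by position, the counts are of the whole annotated gene, and the values are CPM, each gene's counts scaled to the same total in every sample, as mean ± SD over 8 animals. As these are bulk samples, fewer cells of a type and less RNA per cell cannot be told apart. The sub-regions named are the extremes of 51, picked for their means, so no test is given. None of the 5 genes was at 0 in any of the 408 samples.

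FZD7 had the steepest profile. It was highest in cerebellum vermis at 48.6 ± 7.93 CPM (lowest animal 39.3, median 46.4, highest 62.0, n = 8). Cerebellar cortex followed at 39.8 ± 10.5 CPM (14.7, 43.8 and 46.6). The lowest of these came from Rhesus 4, and the other 7 animals lay from 37.5 upward, with a mean of 43.4 ± 2.85 CPM. CA1, dentate gyrus and CA3 of the hippocampus came next with 20.0 ± 6.77, 19.1 ± 6.69 and 17.2 ± 4.90 CPM, which differed by less than their spread. Within animals, CA1 exceeded dentate gyrus by 0.893 ± 4.90 CPM, with the higher value in 5 of 8 animals, and CA3 by 2.84 ± 7.35 CPM, in 3 of 8. In pons the level was 0.598 ± 0.363 CPM (0.1004, 0.5999 and 1.14), 81.4-fold below vermis. It was lower in 8 of 8 animals, as the ranges of these extremes did not overlap. The lowest pons sample had a count of 1, against a median of 41 over all samples. The size of this ratio therefore rests on few reads. Vermis overlapped in range with 1 of the 50 other sub-regions, cerebellar cortex.

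The cerebellar cortex sample of Rhesus 4 was also low for ZDBF2, with 6.13 CPM against 85.4 to 135 CPM in the other 7 animals, at 11911297 total counts against 10194866 to 15755102. Its CDK5R2 level of 21.996 CPM lay within the 10.0 to 22.2 CPM of the others. Such ZDBF2 levels were not particular to this sample. Rhesus 4 had 1.77 CPM in posterior cingular gyrus, 7.55 CPM in anterior cingular gyrus and 7.81 CPM in Substantia Nigra, and Rhesus 8 had 8.65 CPM in cuneus gyrus.

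CDK5R2 was highest in forebrain sub-regions and lowest in corpus callosum. Entorhinal and perirhinal cortex had 64.4 ± 17.5 CPM (36.5, 64.3 and 94.1), putamen 62.7 ± 10.3 CPM and caudate nucleus 62.2 ± 18.1 CPM, and these neighbours did not differ beyond their spread. Within animals, entorhinal and perirhinal cortex exceeded putamen by 1.68 ± 20.6 CPM, in 3 of 8 animals, and caudate nucleus by 2.21 ± 24.6 CPM, in 5 of 8. Corpus callosum, a tract of myelinated axons with few nerve cell bodies, had 2.46 ± 1.40 CPM (1.26, 2.16 and 5.18), and globus pallidus had 8.27 ± 2.42 CPM (4.49, 8.10 and 11.2). The ratio of the highest to the lowest mean was 26.1, and the animals of these sub-regions did not overlap. Both cerebellar sub-regions, where FZD7 was highest, were also low, with 17.6 ± 4.88 CPM in cerebellar cortex and 16.1 ± 6.20 CPM in vermis.

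JUNB and ZDBF2 had their highest mean in the pituitary, labelled pituitarium. JUNB had 64.3 ± 25.4 CPM there (39.9, 61.3 and 117) and 64.1 ± 24.9 CPM in olfactory bulb, and its lowest levels in cerebellar cortex and vermis, 15.2 ± 6.55 and 15.2 ± 3.95 CPM. Pituitary and olfactory bulb differed by 0.157 ± 13.4 CPM within animals. ZDBF2 had 153 ± 70.6 CPM in pituitary (60.7, 155 and 253) and 146 ± 52.9 CPM in accumbens nucleus, against 43.3 ± 15.1 CPM in ventral tegmental area (20.1, 47.8 and 60.2). Its pituitary animals overlapped those of 49 of the 50 other sub-regions, the exception being ventral tegmental area.

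EID2 varied least. It had 23.3 ± 5.60 CPM in pons (17.4, 22.3 and 32.8) and 21.05 ± 3.94 CPM in substantia nigra. The lowest mean was 7.47 ± 1.49 CPM in corpus callosum (6.06, 7.22 and 10.9), a ratio of 3.12. In 44 of the 50 other sub-regions the animals overlapped with those of pons.

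**Figure D5:**
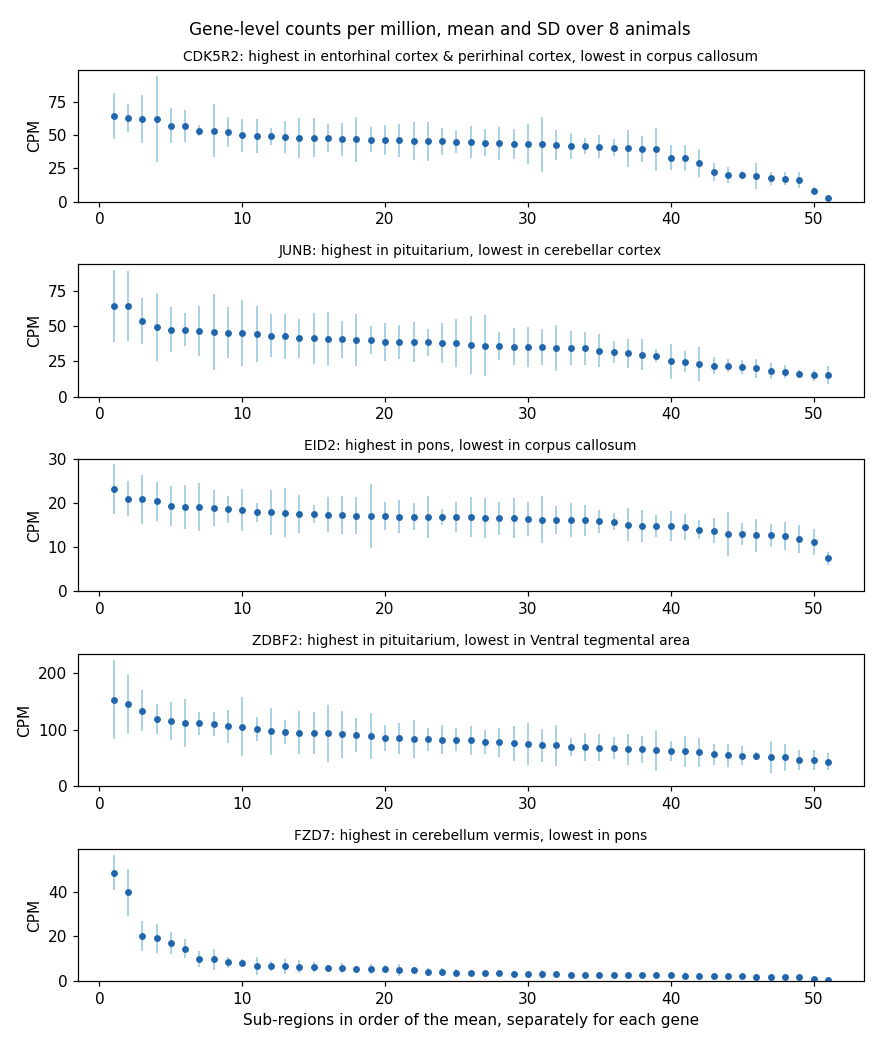
Gene-level CPM (y axis) of the 5 named single-exon members' genes in 51 sub-regions (x axis, in order of the mean, separately for each gene). Points are means and bars SDs over 8 animals. FZD7 falls from 48.6 in vermis to 0.598 in pons, while EID2 spans only 23.3 to 7.47.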

How the data were processed

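The authors sequenced rRNA-depleted, strand-marked libraries, aligned reads to Mmul 8.0.1 with HISAT2 2.0.5, assembled each sample with StringTie 1.3.4 and merged all samples with TACO 0.7.3 under a minimum abundance. The deposited assembly holds exon coordinates and, per transcript, the expr and fraction attributes. The score in the deposited file is a transcript's abundance relative to the highest of its gene identifier, rescaled. The deposited counts are whole reads per Ensembl 91 gene made by the authors with HTSeq 0.6.1, not normalized. Whether the counting used strand is not given in the sources used here.

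Transcripts with 1 exon line were taken as members and compared with multi-exon transcripts by coordinates with Python 3 scripts (numpy and pandas), and the overlap search was tested on simulated data. Named members were the 10 of highest expr, the 5 longest, the 3 shortest, the 3 of highest expr per position class and the 10 of highest expr with a predicted name. The members and lists were chosen with earlier results of these data known. CPM were counts divided by the sample's total. The use of the count table by symbol, without GAPDH, was chosen after seeing the data, as were the mirrored pairs. Of the 10 named genes, 4 had no matching symbol. Precision is limited by the single merged assembly, which has no replicates. The 8 animals are separate, and SDs measure the spread between them. The ATAC-seq samples, a genome, sequence features and an annotation were not used here.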

Additional observations from a re-analysis of the deposited data

Results flagged for a closer look

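Among the 15 groups of 8 animals compared for the 5 named genes, 3 had an animal far from the others. The rule used flags about 1 in 20 groups of independent, normally distributed values. These groups share the same 8 animals and were picked by their means, so that rate does not apply to them. FZD7 in cerebellar cortex had 1 animal at 14.7 CPM, and the nearest of the others had 37.5 CPM. EID2 in corpus callosum had 1 animal at 10.9 CPM, above a next value of 7.64 CPM. CDK5R2 in putamen had 1 animal at 84.5 CPM, above a next value of 67.9 CPM. The cause was not tested.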

How the results depend on the processing

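Of the 40 alternatives planned for 8 values of the assembly, 19 stayed within the 95% binomial interval of the value (for medians, of its rank) and 21 moved beyond it. That interval is only a yardstick and measures no sampling error, since members are not separate observations and the assembly has no replicates. Without the mitochondrial sequence all 8 stayed, and with members of at least 200 bases the 7 recomputed did. For the settings by expr and by gene identifier, overlap was still measured against all multi-exon transcripts of the assembly. At an expr of at least 10 (518 members of 9803 transcripts) the single-exon share was 5.28%, the median length 944.5 bases, the plus-strand share 53.7%, same-strand overlap 33.2% and no overlap 38.2%. With 1 transcript per gene identifier, that of highest expr (5387 of 22922), these were 23.5%, 1689 bases, 50.8%, 30.2% and 34.2%, opposite-strand overlap alone was 35.6%, and the ratio of the median expr values was 0.0263. Against transcripts with 2 exons that ratio was 1.26, so its direction depends on the transcripts compared. With at least 50% of the length overlapped, opposite-strand overlap alone was 27.5% and no overlap 30.5%. With exons only, same-strand overlap was 32.3%, opposite-strand overlap alone 24.2% and no overlap 43.6%. With 3′ ends extended by 10 kb these were 55.9%, 25.8% and 18.3%. The cause was not tested. Alternatives added after seeing the data gave 2912 mirrored pairs at 50% reciprocal overlap and 429 with 1 pair per locus, and leaving the 10 genes with the most counts out of the totals moved none of the 5 highest CPM means by more than 1 SD. The planned search for poly(A) signals, the GC content and the annotated genes were not run, since they need a genome and annotation not used here. The assembly has no samples to pair. The sub-regions share the same 8 animals, and differences within animals were added after seeing the data. The highest sub-region was above the lowest in 8 of 8 animals for each of the 5 genes. The ranges of these extremes did not overlap for any of the 5, so this count was fixed in advance and is no check. The highest exceeded the second in 3 to 6 of 8 animals. One merged assembly with no replicates limits what can be said of rare transcripts.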
